A study of Homo sapiens with 8 samples.

Results

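HMGA2 and 8 other genes known as targets of the let-7 miRNAs (IGF2BP1, IGF2BP2, IGF2BP3, LIN28B, ARID3B, NRAS, THBS1 and CDC34) were followed through a RIP-chip experiment in A431 cells. These 9 genes are among 22439 genes named on the array. HMGA2 was selected on its measured rise in the input arrays, so its input change, its enrichments and the change of its enrichment are given as a description with no test. The RIP change of HMGA2 comes from other arrays and was tested. The other 8 genes were listed as let-7 targets, with earlier results of these data known, and were tested in the fit over all probes. A431 is an established human squamous carcinoma cell line. They received miR-634, or miR-NC as a control miRNA, at a dose of 10 nM, and were harvested 24 h later. RNA bound to the Argonaute protein AGO2 was pulled down with an antibody (RIP), and total RNA served as the input. Input and RIP from either transfection made 4 groups of 2 single-color arrays. The methods call the input total RNA, whereas its arrays carry normal rabbit IgG as the antibody in their labels. Nothing states that the duplicates came from separate transfections, so p-values measure the spread between these arrays, which may be technical.

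Loaded in Argonaute proteins, the let-7 miRNAs pair through their seed, a short stretch near the 5′ end, with sites mostly in 3′ UTRs, and the bound mRNA is translated less and degraded faster. HMGA2, a chromatin protein of embryonic tissue and of many tumors, is a classic target with several let-7 sites in the 3′ UTR of its full-length transcript. A transfected miRNA enters the same Argonaute proteins as the miRNAs of the cell, and RIP over input asks how much of an mRNA was bound to AGO2 relative to its total amount.

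The mature sequences below, from RefSeq (GRCh38.p14), show the seed that the let-7 family shares, by whose known targets the genes were listed, and the different seed of the transfected miRNA. The capitals mark the seed, bases 2 to 8. All 9 mature let-7 and miR-98 sequences from 5′ arms, encoded at 12 loci, share the seed GAGGUAG, of which 4 are shown. The seed of miR-634, encoded at chr17:66787132-66787153 on the + strand, is ACCAGCA.
hsa-let-7a-5p: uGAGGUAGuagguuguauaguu
hsa-let-7d-5p: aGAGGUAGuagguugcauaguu
hsa-let-7i-5p: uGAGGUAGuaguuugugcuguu
hsa-miR-98-5p: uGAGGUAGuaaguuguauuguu
hsa-miR-634: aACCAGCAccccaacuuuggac
The complement of the let-7 seed is CUACCUC and that of the miR-634 seed is UGCUGGU. Sites in the transcripts were not searched, because 3′ UTR sequences were not used here. Mature miRNAs were not measured on these arrays.

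Levels are log2 intensities minus the 75th percentile of the array, taken over those probes, 16808 of 58201, whose signal stood well above background on each of the 8 arrays. A level of 0 is thus the 75th percentile of those probes. Input arrays had between 45.6% and 45.8% of spots well above background. In the RIP the share was 33.6% and 34.5% with miR-NC against 40.0% on either array with miR-634, so the RIP groups differed in signal, and the part of this in the results was not tested. On the slide, input arrays lay in row 1 and RIP arrays in row 2, the miR-NC arrays filling columns 1 and 2 and the others columns 3 and 4, so that position and group cannot be told apart. The number of arrays limits the precision. All 9 genes had a probe, 14 probes in all, and 11 probes of 7 genes passed the filter. IGF2BP1, an mRNA-binding protein of fetal tissue, was not well above background on any array, with levels from -8.52 to -6.10 over 10 spots per array. LIN28B, which blocks let-7 maturation, was not well above background on any array either, with levels from -9.33 to -7.10. No fold is given for these 2 genes, whose levels below background have no order.

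HMGA2 was high in the AGO2 RIP of both kinds of cells, and its input level was higher with miR-634. With the probe for NM_003483, the input level was -1.77 and -1.74 on the miR-NC arrays and 0.04 and 0.08 on the miR-634 arrays. The RIP level was 2.21 and 2.27 in miR-NC cells and 2.11 and 2.08 in miR-634 cells. The RIP levels of both groups lay above all input levels. By group mean the order was miR-NC RIP (2.24), miR-634 RIP (2.10), miR-634 input (0.06) and miR-NC input (-1.76). The input change, the value for which HMGA2 was chosen, was 1.82 (SE 0.05), or 3.53-fold, the highest of 16808 probes. Enrichment, which is RIP minus input on the log2 scale, was 4.0 in miR-NC cells, or 16.0-fold, the 21st value from the top. In miR-634 cells it was 2.04, or 4.10-fold. The change of enrichment, which equals the RIP change minus the input change, was -1.96 (SE 0.07). Of this difference, the RIP arrays contributed -0.15 (SE 0.05), the tested part, with an adjusted p of 0.0318 in the limma fit over all probes. With spike-in scaling the enrichments were 1.42 and 0.55 and the change of enrichment -0.86.

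The RIP change of HMGA2 was thus small and depended on the scaling. Over all passing probes the median RIP change was -0.24, and relative to that median the HMGA2 probe stood at 0.09. With the 75th percentile over all probes the change was 0.03 (adjusted p = 0.779), with the authors' processed values 0.03 (adjusted p = 0.783), and with spike-in scaling 0.72 (adjusted p = 0.00101). The adjusted p was under 0.05 in 6 of 22 alternatives, spike-in scaling with its opposite direction among them, and ranged from 0.00101 to 0.783. Leaving out any array other than miR-NC RIP replicate 1 also lost the call, at adjusted p from 0.0512 to 0.12. No direction is therefore given for the amount of HMGA2 mRNA in the RIP.

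The HMGA2 probes did not behave alike. The probe for NM_001300918 had input levels of -0.54 and -0.25 with miR-NC and of -0.45 and -0.47 with miR-634, so the input groups overlapped. Its RIP level fell from 0.44 and 0.30 in miR-NC cells to -0.44 and -0.48 in miR-634 cells. This RIP change of -0.83 (SE 0.10) was past the threshold (adjusted p = 0.000321) and stood at -0.59 relative to the median of all probes, but was 0.0335 with spike-in scaling. Its enrichment was 0.76 with miR-NC and -0.0025 with miR-634. The probe for NM_001300919 was well above background on the 4 input arrays, with levels from -5.25 to -5.0, and on no RIP array. In miR-634 cells its RIP level was at least 2.28-fold lower than its input level, whereas in miR-NC cells the bound was under 1 and gives no fold. Such a bound takes, on each dim array, the higher of the probe's own level and the lowest level among probes well above background. HMGA2 makes transcripts with different 3′ ends, and the exon that each probe reads was not used here.

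**Figure D1:**
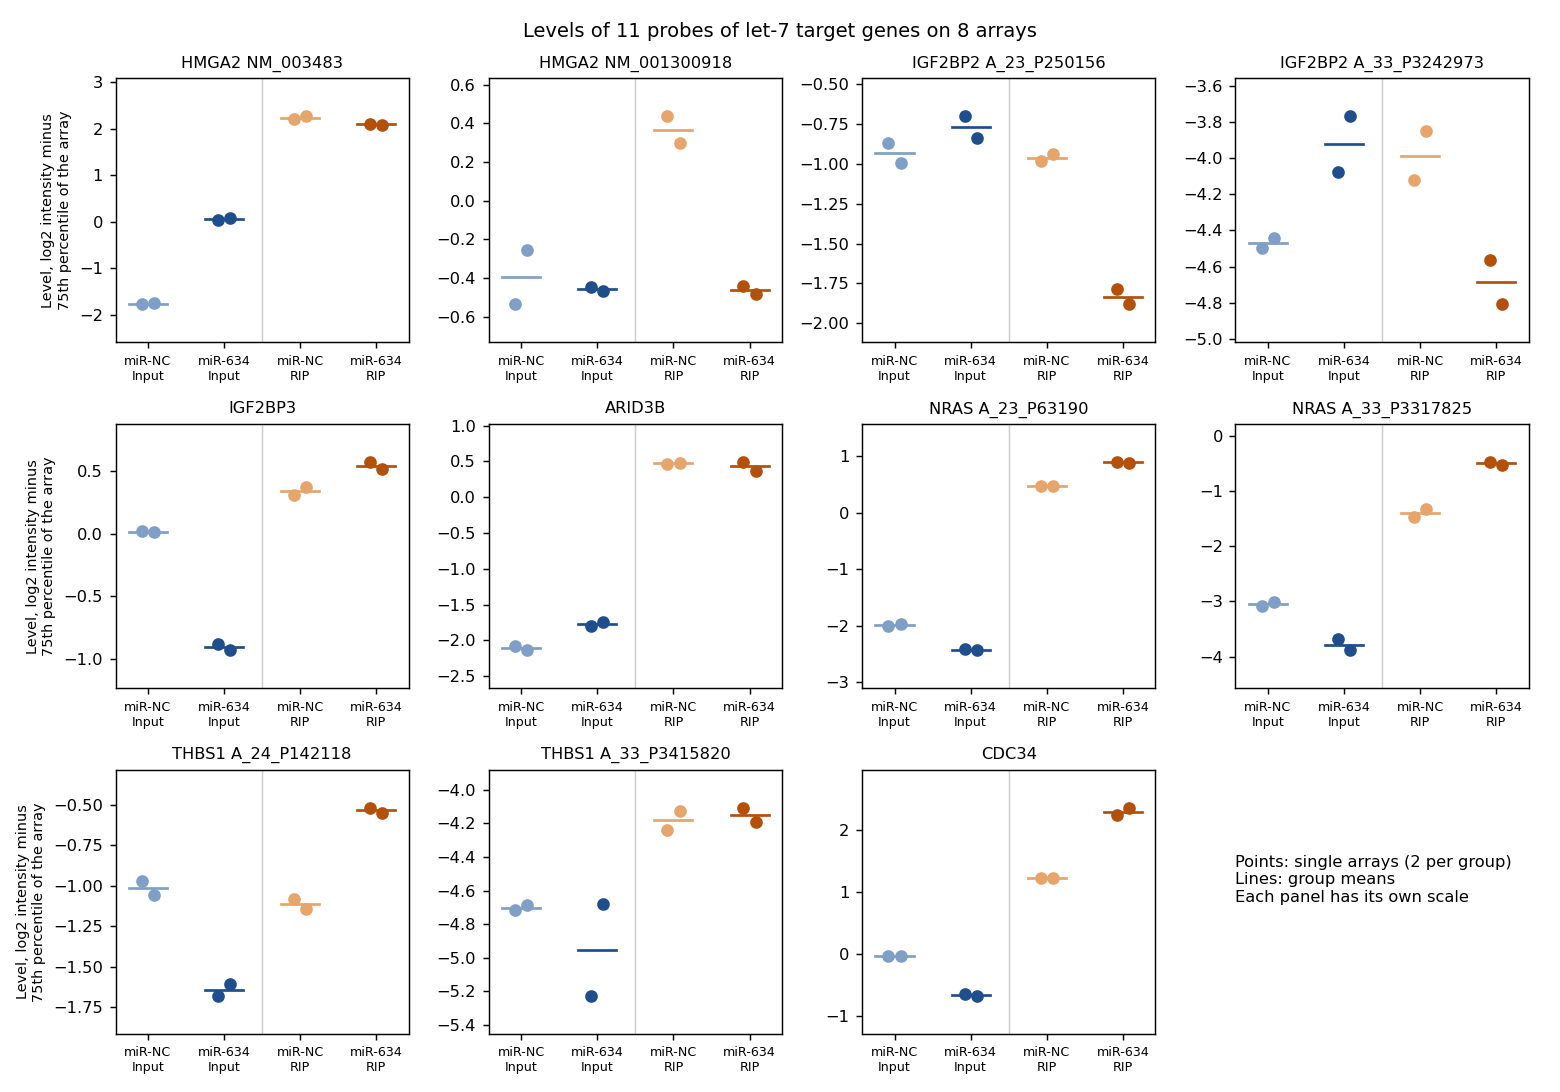
Levels of the 11 passing probes on each array, as log2 intensity minus the 75th percentile of the array, with 2 points per group and lines at group means. HMGA2 NM_003483 had input levels near -1.76 with miR-NC and 0.06 with miR-634 at RIP levels of 2.24 and 2.10, whereas in IGF2BP3, NRAS and CDC34 the input level was lower and the RIP level higher with miR-634.

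The other listed genes moved in different directions. For the input, 2 of 9 tested probes rose (8.42% of all probes did) and 5 fell (9.83% of all probes). In the RIP, 5 of 9 probes of these genes rose (27.3% of all probes) and 2, both of IGF2BP2, fell (48.6% of all probes). For the change of enrichment, 5 of 9 probes gained (24.9% of all probes) and 3 lost (43.5% of all probes). By gene, NRAS, THBS1, IGF2BP3 and CDC34 had a probe that gained, and IGF2BP2 and ARID3B lost. The median input change of the 9 tested probes was -0.44, against -0.02 over all probes, and their median change of enrichment was 0.86, against -0.26. With spike-in scaling 0 of these probes rose in the input, 0 fell in the RIP and 0 lost enrichment. ARID3B then became a called gain (0.725). Over all probes, that scaling called 10471 higher and 642 lower in the RIP (4596 and 8176 otherwise). For the change of enrichment it called 10664 higher and 287 lower (4189 and 7315 otherwise). The replicate block left 1 input rise, and both rises depended on each single input array.

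**Figure D2:**
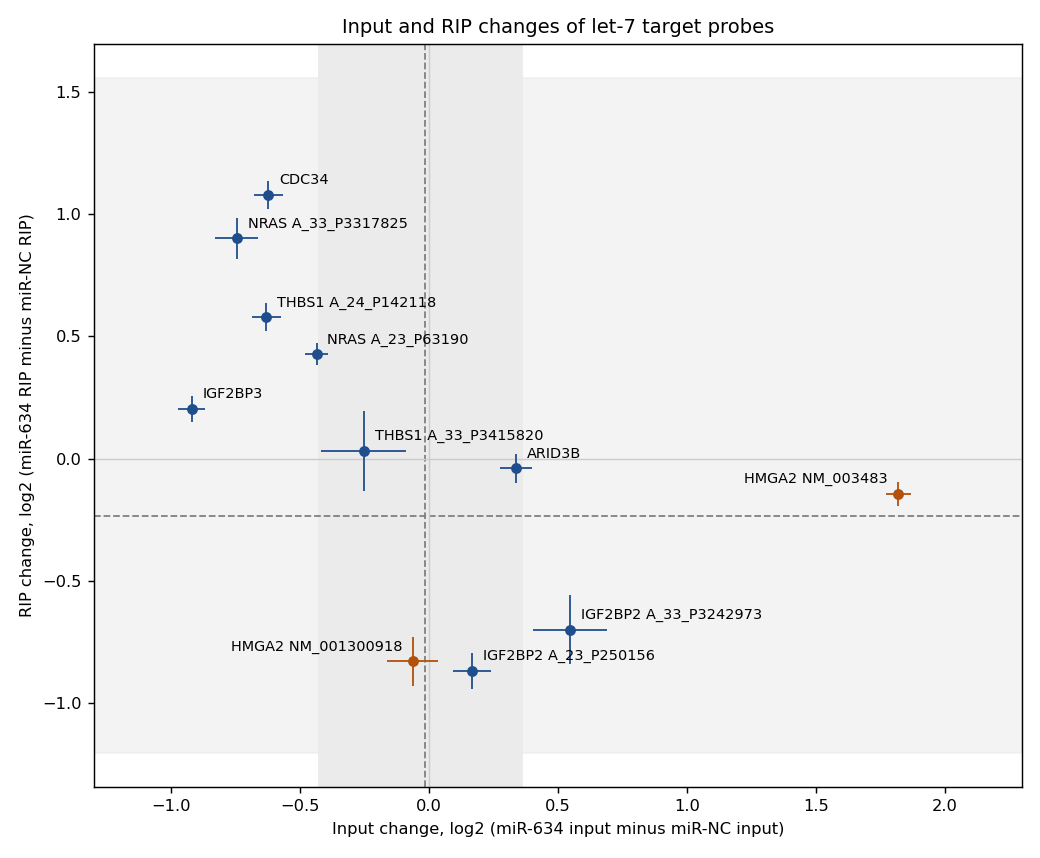
Input change (x axis, log2, miR-634 input minus miR-NC input) against RIP change (y axis, log2, miR-634 RIP minus miR-NC RIP) for the 11 probes, with bars of 1 SE, HMGA2 in orange, dashed lines at the medians of all probes and grey bands over their 5th to 95th percentiles. CDC34, both NRAS probes, IGF2BP3 and THBS1 A_24_P142118 lie at lower input and higher RIP, HMGA2 NM_003483 lies alone at an input change of 1.82, and IGF2BP2 lies at lower RIP, where spike-in scaling puts A_23_P250156 at -0.0044 and turns A_33_P3242973 to 0.16.

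ARID3B and IGF2BP2 lost enrichment by the test, though not with spike-in scaling. ARID3B, a DNA-binding protein, had input levels of -2.08 and -2.14 with miR-NC and of -1.80 and -1.74 with miR-634. Its input level rose by 0.34 (SE 0.06, adjusted p = 0.0148), while its RIP levels, 0.46 and 0.48 against 0.49 and 0.37, overlapped between the groups (change -0.04, adjusted p = 0.563). ARID3B was 5.97-fold enriched in miR-NC cells (-0.006 on the log2 scale with spike-in scaling) and 4.60-fold in miR-634 cells (0.72 with that scaling). Its enrichment fell by 0.38 (SE 0.09, adjusted p = 0.00776). This fall was -0.12 relative to the median of all probes, was -0.26 with an adjusted p of 0.0933 with the percentile over all probes, and became a called gain of 0.725 with spike-in scaling (adjusted p = 0.0216). Over 22 alternatives the adjusted p ranged from 0.00333 to 0.106. The call on its input level was lost in 8 of 22 alternatives (adjusted p from 0.00488 to 0.76), among them the loss of any single input array: 0.0701 and 0.0945 without miR-NC replicate 1 or 2, and 0.0637 and 0.0913 without miR-634 replicate 1 or 2.

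IGF2BP2, an mRNA-binding protein that is itself a target of HMGA2 as a transcription regulator, differed in the RIP by both probes, though not with spike-in scaling. With A_23_P250156 the RIP level was -0.99 and -0.94 in miR-NC cells and -1.78 and -1.88 in miR-634 cells, a fall by 0.87 (SE 0.07, adjusted p = 6.46e-05) at an input change of 0.17 (adjusted p = 0.175). With A_33_P3242973, a dimmer probe of the same mRNA, the RIP level fell by 0.70 (SE 0.14, adjusted p = 0.00399) and the input level rose by 0.55 (SE 0.14, adjusted p = 0.0455). This rise lost its call in 13 of 21 alternatives, among them the replicate block (adjusted p = 0.0613) and the loss of any single input array (0.0648 to 0.199), with adjusted p from 0.0191 to 0.332 in all. IGF2BP2 was the only tested gene of the list below its input level in miR-634 cells by the test of both of its probes, at -1.06 and -0.76. The change of enrichment was -1.03 (SE 0.10, adjusted p = 0.000216) and -1.25 (SE 0.20, adjusted p = 0.00175), and with spike-in scaling it was 0.0683 and -0.14 and no longer called.

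NRAS and CDC34 went the other way, with less mRNA in the input and more in the RIP. NRAS, a GTPase of the RAS family, had input levels of -2.01 and -1.97 with miR-NC and of -2.42 and -2.43 with miR-634 by A_23_P63190. The RIP levels of this probe were 0.46 and 0.46 in miR-NC cells and 0.90 and 0.88 in miR-634 cells. The input change was -0.44 (SE 0.05, adjusted p = 0.00259) and the RIP change 0.43 (SE 0.05, adjusted p = 0.000182). With A_33_P3317825 the input change was -0.75 (SE 0.08, adjusted p = 0.00324) and the RIP change 0.90 (SE 0.08, adjusted p = 9.31e-05). Both input calls were lost with no filter (adjusted p of 0.0879 and 0.0653) and by the methods' test after adjustment (0.066 and 0.108). The probes differed in the enrichment of miR-NC cells, 5.48-fold and 3.13-fold, and came to 9.96-fold and 9.82-fold in miR-634 cells, ranks 86 and 90 of 16808. With spike-in scaling they stood at -0.13 and -0.94 on the log2 scale in miR-NC cells and at 1.83 and 1.81 in miR-634 cells.

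CDC34, a ubiquitin-conjugating enzyme of the cell cycle, had input levels of -0.04 on both miR-NC arrays and of -0.65 and -0.68 on the miR-634 arrays. Its RIP levels were 1.23 and 1.22 in miR-NC cells and 2.24 and 2.37 in miR-634 cells, so that neither input nor RIP groups overlapped. The input level fell by 0.62 (SE 0.06, adjusted p = 0.00175), the RIP level rose by 1.08 (SE 0.06, adjusted p = 7.49e-06), and enrichment went from 2.40-fold to 7.82-fold. The input call was lost with no filter (adjusted p = 0.0562) and by the methods' test after adjustment (0.0556). Spike-in scaling put CDC34 below its input level in miR-NC cells (-1.32, adjusted p = 1.42e-10) and at 1.48 on the log2 scale in miR-634 cells. Its change of enrichment of 1.70 (SE 0.08, adjusted p = 8.32e-06) was the highest of the listed genes. NRAS A_33_P3317825 stood at 1.65 (SE 0.12), a gap below either SE, and the order was not tested.

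IGF2BP3 and THBS1 gained enrichment from a low start. IGF2BP3, an mRNA-binding protein of the same family as IGF2BP2, had input levels of 0.02 and 0.01 with miR-NC and of -0.88 and -0.93 with miR-634. Its RIP levels were 0.31 and 0.37 in miR-NC cells and 0.57 and 0.51 in miR-634 cells. The fall of the input level by 0.92 (SE 0.05, adjusted p = 0.000621) was the 88th lowest value of all probes. The methods' test after adjustment did not call it (0.0556). The RIP level rose by 0.20 (SE 0.05, adjusted p = 0.0108), a call lost with no filter (0.0551) and by the methods' test after adjustment (0.0775). IGF2BP3 and IGF2BP2 thus had changes of enrichment of opposite sign, 1.12 (SE 0.07, adjusted p = 3.37e-05) against -1.03 and -1.25. This depended on the scaling. With spike-in scaling IGF2BP3 stood at 2.23 and IGF2BP2 at 0.0683 and -0.14, neither IGF2BP2 value being called. The difference between these genes was not tested.

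THBS1 encodes thrombospondin 1, a secreted matrix protein that restrains angiogenesis. By A_24_P142118 its input levels were -0.97 and -1.06 with miR-NC and -1.68 and -1.61 with miR-634, and its RIP levels were -1.08 and -1.14 against -0.52 and -0.55. The input level fell by 0.63 (SE 0.06, adjusted p = 0.00176) and the RIP level rose by 0.58 (SE 0.06, adjusted p = 0.000131). The input call was lost with no filter (adjusted p = 0.0562) and by the methods' test after adjustment (0.083). In miR-NC cells this probe was not enriched by the test (-0.10, adjusted p = 0.164), and in miR-634 cells it was 2.16-fold enriched, but at -0.37 with spike-in scaling (adjusted p = 0.0793). The dimmer probe A_33_P3415820 passed neither for the input change (-0.25, SE 0.16, adjusted p = 0.337) nor for the RIP change (0.03, SE 0.16, adjusted p = 0.875), and its miR-634 input arrays lay apart, at -5.23 and -4.68. Without the latter array, miR-634 input replicate 2, its input change was -0.53 (adjusted p = 0.0351) and its change of enrichment 0.56 (adjusted p = 0.0072), whereas with all arrays the change of enrichment was 0.28 (adjusted p = 0.313). Over 21 alternatives the adjusted p of that change ranged from 6.92e-06 to 0.935.

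Enrichment was also counted in each kind of cell. With miR-NC, 7 of 9 tested probes lay above their input level (36.3% of all probes) and 0 lay below (41.1% of all probes), but with spike-in scaling 0 lay above and 7 below. For IGF2BP2 and THBS1 the call came from the dimmer probe alone (0.48 and 0.52), the brighter ones being at -0.03 (adjusted p = 0.734) and -0.10 (adjusted p = 0.164). Both calls were lost, leaving 5 probes of 4 genes, without miR-NC input replicate 1, miR-NC input replicate 2 or miR-NC RIP replicate 2, at adjusted p of 0.0789, 0.0557 and 0.0894 for IGF2BP2 and of 0.0889, 0.0748 and 0.0921 for THBS1. With miR-634, 7 of 9 probes lay above (35.8% of all probes), and the IGF2BP2 probes, 2 of 9, lay below (46.7% of all probes), but with spike-in scaling 4 lay above, IGF2BP3 (-0.0359) and the THBS1 probes (-0.37 and -0.68) having turned. The order in miR-NC cells, by the brightest probe of each gene, ran from HMGA2 (4.0) through ARID3B (2.58), NRAS (2.45), CDC34 (1.26) and IGF2BP3 (0.32) to IGF2BP2 (-0.03) and THBS1 (-0.10). In miR-634 cells it ran from NRAS (3.32) through CDC34 (2.97), ARID3B (2.20), HMGA2 (2.04), IGF2BP3 (1.45) and THBS1 (1.11) to IGF2BP2 (-1.06). In miR-NC cells IGF2BP2 and THBS1 differed by less than the SE of the IGF2BP2 value (0.07). Differences between genes were not tested, since probes differ in their response.

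**Figure D3:**
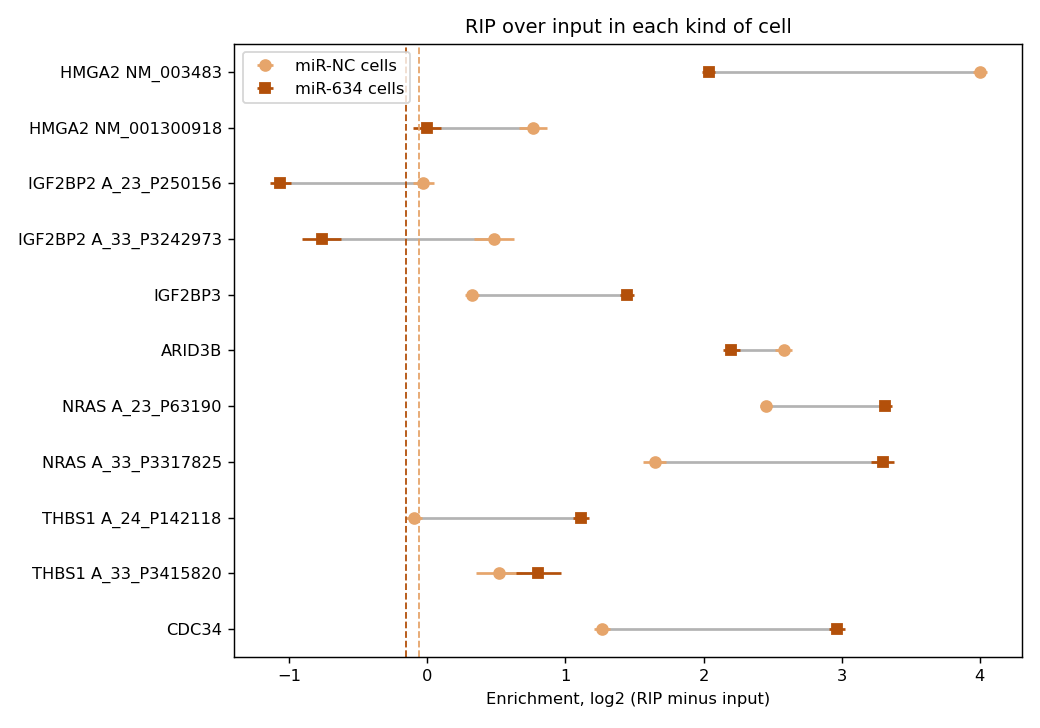
Enrichment (x axis, log2, RIP minus input) of the 11 passing probes in miR-NC cells (circles) and miR-634 cells (squares), with bars of 1 SE and dashed lines at the medians of all probes, -0.06 and -0.15. Enrichment is lower in miR-634 cells for HMGA2, IGF2BP2 and ARID3B and higher for IGF2BP3, NRAS, THBS1 and CDC34, and with spike-in scaling the change turns for ARID3B and for single probes of HMGA2 and IGF2BP2.

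The scaling of the arrays set the zero of each comparison. Spike-in scaling, on 8 spike-in probes, moved the median of all probes from -0.02 to -0.25 for the input change, from -0.24 to 0.63 for the RIP change and from -0.26 to 0.84 for the change of enrichment. It put the median enrichment at -2.64 with miR-NC and -1.63 with miR-634. Among called probes, the share called higher went from 46.1% to 2.05% for the input, from 36.0% to 94.2% for the RIP, from 46.9% to 0.471% and from 43.4% to 6.15% for the enrichments, and from 36.4% to 97.4% for the change of enrichment. With the percentile over all probes the share was 60.3% for the input and 47.7% for the RIP, and with the authors' processed values it was 60.0% and 47.7%. Those 2 settings also put the median RIP change at -0.06 and the median change of enrichment at -0.14, while centring on the median profile, chosen after seeing the data, put them at -0.11 and -0.13 and the median enrichment in miR-634 cells at 0.02. A scaling that subtracts a constant from each array leaves a value minus the median of all probes as it was, by construction, so only the 2 settings with quantile normalization could move it. With these settings included, the change of enrichment minus that median lay between 1.83 and 1.96 for CDC34, between 1.26 and 1.39 for IGF2BP3, between 0.90 and 1.91 for the NRAS probes, between -0.99 and -0.42 for the IGF2BP2 probes and between -0.21 and -0.12 for ARID3B. For HMGA2 NM_003483 the input change minus the median lay between 1.71 and 1.83, as a description, and the RIP change minus the median between -0.01 and 0.09.

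**Figure D4:**
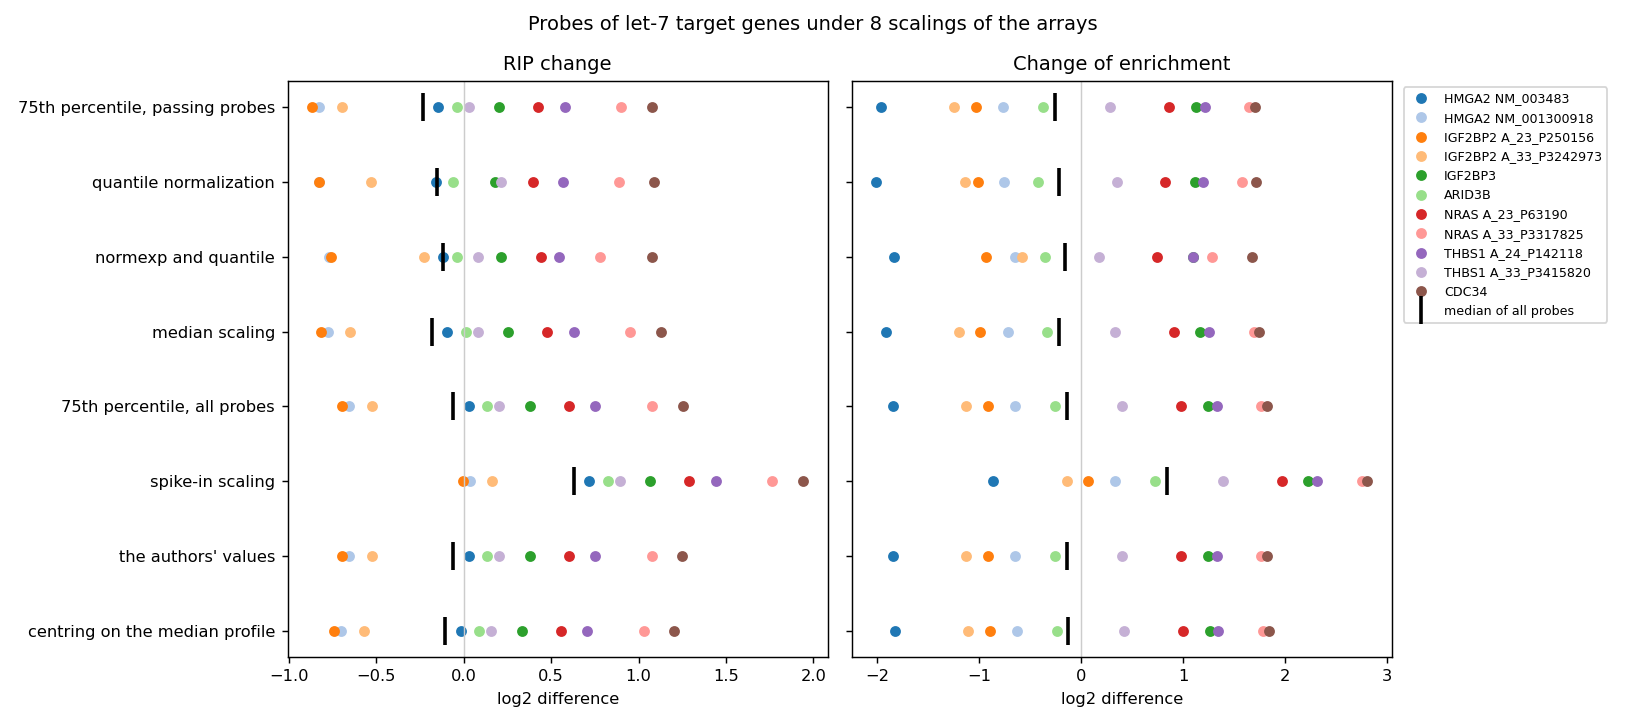
RIP change (left) and change of enrichment (right), log2, of the 11 probes under 8 scalings, with black bars at the median of all probes. With spike-in scaling the medians lie at 0.63 and 0.84 and the probes move with them, as a shift of whole arrays does by construction.

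The genes most like HMGA2 were sought by their profiles, of which the input change that chose HMGA2 is a component. Likeness was the root mean square distance between profiles over the 8 arrays, each profile being the log2 level minus its own mean, with the brightest passing probe of each of 10958 genes against HMGA2 NM_003483. The nearest was STK40 (distance 0.41), a pseudokinase, followed by FICD (0.45), an enzyme of the endoplasmic reticulum that AMPylates the chaperone BiP, NR6A1 (0.50), an orphan nuclear receptor, ZCCHC3 (0.52), a nucleic acid-binding protein, and HIC2 (0.52), a transcriptional repressor. The median distance was 1.72. STK40 had an input change of 0.70 and enrichments of 3.65 and 2.66, and NR6A1 an input change of 0.53 and enrichments of 3.21 and 2.17. Of the listed genes ARID3B was the nearest, in place 18 at 0.61.

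A further 22 genes known as let-7 targets were counted in the same way, by their brightest passing probe. All were on the array and 17 were measured. Enrichment was above the input level in 10 of 17 in miR-NC cells (58.8%, against 33.2% of all measured genes) and below it in 5 (29.4%, against 44.9%), calls that depend on the scaling as those of all probes do, with a median of 0.81 against -0.12 over all 10959 measured genes. The input level rose in 3 (17.6%, against 9.79%) and fell in 4 (23.5%, against 10.6%), with a median change of 0.03 against -0.01. Enrichment rose with miR-634 in 7 of 17 (41.2%, against 27.8% of all measured genes) and fell in 7 (41.2%, against 42.4%), with a median of -0.04 against -0.22. The gains were led by RRM2, a subunit of ribonucleotide reductase (2.20, SE 0.18, adjusted p = 8.78e-05), CDC25A, a cell cycle phosphatase (0.86), IGF1R, a growth factor receptor (0.79), and PLAGL2, a zinc finger protein (0.76). In each of these the input level also fell, with changes of -0.57, -0.68, -0.71 and -0.61. With no filter the input calls of RRM2, IGF1R and PLAGL2 were lost (adjusted p of 0.229, 0.0578 and 0.104). By the methods' test after adjustment they were lost too (0.247, 0.102 and 0.0805), as was that of CDC25A (0.0637). That test also lost the gain of enrichment of PLAGL2 (0.0652). For RRM2 the input call was lost without miR-NC input replicate 1 or 2 (adjusted p of 0.15 and 0.0773) or miR-634 input replicate 2 (0.0773), and for PLAGL2 without miR-NC input replicate 2 or miR-634 input replicate 1 (0.0522 and 0.0538). The losses were led by E2F5, a cell cycle transcription factor (-1.12, SE 0.12, adjusted p = 0.00024), NR6A1 (-1.04) and COIL, a protein of Cajal bodies (-0.82). Of these, E2F5 and NR6A1 rose in the input, by 0.55 and 0.53, the former losing its call without miR-NC input replicate 2 or miR-634 input replicate 1 (adjusted p of 0.0591 and 0.0612). Both input calls were lost with spike-in scaling (adjusted p of 0.333 and 0.361), with no filter (0.12 and 0.0636) and by the methods' test after adjustment (0.0932 and 0.0751). With spike-in scaling the change of enrichment was -0.0192 for E2F5 (adjusted p = 0.955), 0.062 for NR6A1 and 0.28 for COIL, so that none of these losses was called.

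The genes that make let-7 and the hosts of its precursors gave few measured members. Of 11 processing genes 8 were measured. Enrichment fell in 5 (62.5%, against 42.4% of all measured genes) and rose in 1 of 8, against 27.8%. These calls depend on the scaling as those of all probes do, whose median moved from -0.26 to 0.84 with spike-in scaling. XPO5, which exports miRNA precursors from the nucleus, gained by 1.59 (SE 0.07, adjusted p = 6.19e-06), with a RIP change of 1.40. KHSRP, which promotes let-7 maturation, lost by 0.95 (SE 0.08, adjusted p = 0.000103), but its change was 0.15 with spike-in scaling. DICER1 is counted here and among the further targets. Of 6 host genes 5 were on the array and 2 were measured, HUWE1 and SPACA6, with no call on the input change or on the change of enrichment.

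Known targets of miR-21 and of miR-17 were counted for comparison. Of 7 miR-21 targets 5 were measured, of which 2 gained and 2 lost enrichment, with a median of 0.31. Of all measured genes 27.8% gained and 42.4% lost, with a median of -0.22. TPM1, a tropomyosin, gained by 1.34 (SE 0.07, adjusted p = 1.42e-05) and SPRY1, an inhibitor of growth factor signaling, lost by 1.38 on the log2 scale (change -1.38, SE 0.09, adjusted p = 3.84e-05). Of 7 miR-17 targets all were measured, of which 1 gained and 6 lost, with a median of -0.78. STAT3 gained by 0.63 (adjusted p = 0.00311), and CDKN1A, an inhibitor of cyclin-dependent kinases, had a change of -1.44 (SE 0.27, adjusted p = 0.00367) at an input change of 1.29 (adjusted p = 0.00838, but 0.0639 without miR-634 input replicate 2). This probe was dim in the miR-NC input (mean level -6.06, SD 0.45), and over 22 alternatives its input change ranged from 0.46 to 1.60 and its change of enrichment from -1.75 to -0.34, the adjusted p reaching 0.173 and 0.295. With spike-in scaling 0 genes of either list lost enrichment by limma. The gain of STAT3 was not called by the methods' test after adjustment (adjusted p = 0.0572).

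**Figure D5:**
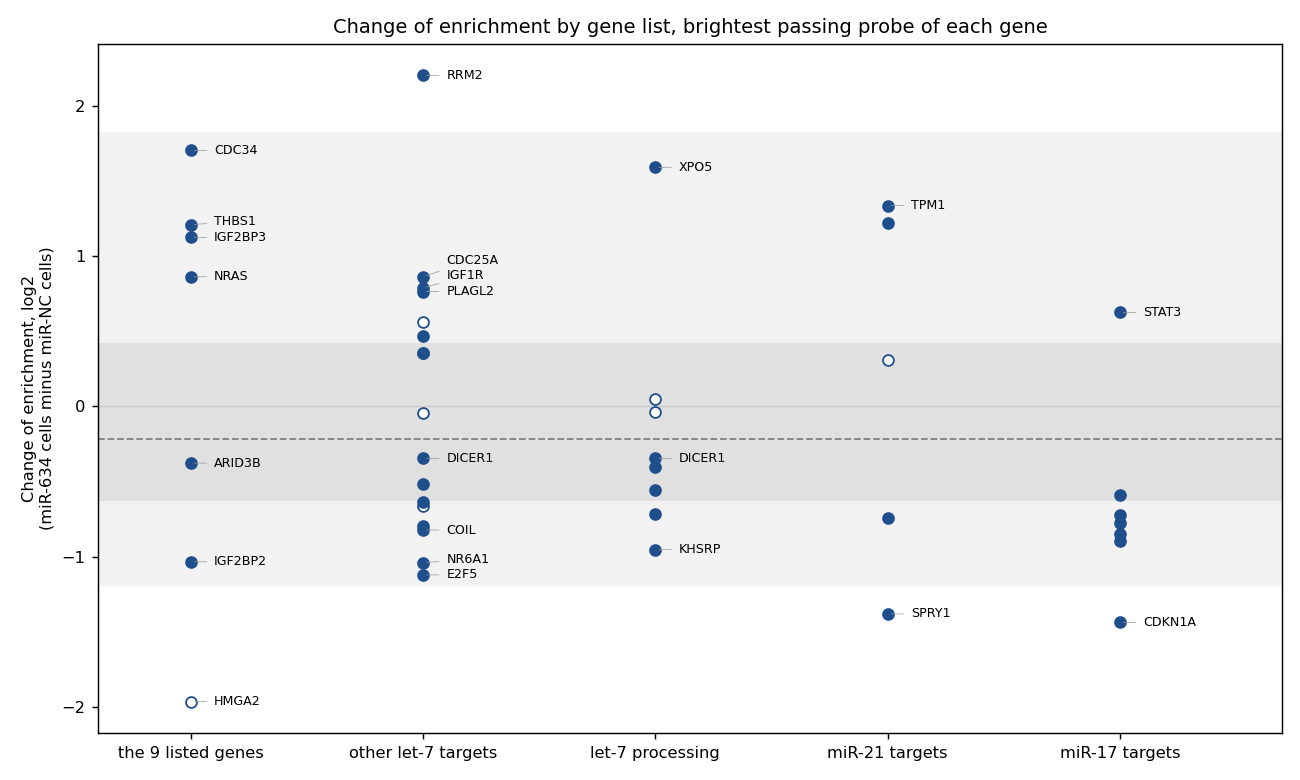
Change of enrichment (y axis, log2, miR-634 cells minus miR-NC cells) for the brightest passing probe of each measured gene, by list, with filled points at an adjusted p under 0.05 and open points where it was not or, for HMGA2, where no test was made, and with names for the listed genes and for those the text describes. Grey bands hold the middle of all measured genes (25th to 75th and 5th to 95th percentiles) around their median of -0.22. The listed let-7 targets spread from -1.96 (HMGA2) to 1.70 (CDC34).

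The label of the cells was checked against marker genes. All 7 squamous markers (KRT5, KRT14, KRT17, KRT6A, TP63, SFN and EGFR) were well above background on all 8 arrays. Their input level rose in 3 (9.79% of all measured genes did) and fell in 0 (10.6% did), with a median change of 0.25, a count that became 0 with spike-in scaling and also without any single input array. Of the 6 markers of other cell types, DES alone passed on all 8 arrays, with an input change of -0.15 (adjusted p = 0.171). CD3E, PECAM1 and COL1A2 were not well above background on any array, and PTPRC and COL1A1 had at most 4 arrays above it.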

How the data were processed

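AGO2 RIP and input RNA of A431 cells was measured on 8 Agilent arrays. For every spot the authors deposited a scanner intensity with the local background subtracted by Feature Extraction, and a table of their GeneSpring log2 values, used as an alternative. The deposited log2 values followed the intensities minus the 75th percentile over all probes, centered on the median of each probe. Control and outlier spots were left out, spots of a probe were averaged, and no spot was saturated. The 75th percentile over probes well above background on all 8 arrays was subtracted from each array's log2 values. RefSeq (GRCh38.p14) gave symbols for 31104 of the 33080 probes that carry one of its accessions. The array design follows another build, so gene positions are not given.

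The 4 group means were fitted with limma 3.58.1 in R 4.3.3 (lmFit and eBayes), with Benjamini-Hochberg adjustment over 16808 probes and a threshold of 0.05. The fit was tested on simulated data. SE values come from this fit. All arrays shared 1 slide and 1 scan, so no slide block was fitted. The members and lists were chosen with earlier results of these data known, and some genes of the lists are not reported here, nor counted. Named are all probes of the 9 genes, up to 4 called genes that gained and 3 that lost from the further let-7 targets, 1 in each direction from the other lists, the markers, the 5 genes nearest HMGA2 and, chosen after their values were seen, DICER1, HUWE1 and SPACA6. The alternatives were other background corrections, scalings, filters and variance models, the brightest probe per gene, a replicate block, the methods' t-test and each array left out. That t-test comes from the general statistics of the methods, which state for the arrays a cutoff on the fold change of enrichment instead. Centring on the median profile was added after seeing the data.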

Additional observations from a re-analysis of the deposited data

Results flagged for a closer look

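The enrichment differed between miR-NC cells and miR-634 cells, by the test of the difference in the limma fit, for 8 of 9 tested probes. It was higher in miR-634 cells for CDC34 (1.70 on the log2 scale), NRAS (1.65 for A_33_P3317825 and 0.86 for A_23_P63190), THBS1 A_24_P142118 (1.21) and IGF2BP3 (1.12). It was lower for IGF2BP2 (-1.03 for A_23_P250156 and -1.25 for A_33_P3242973) and for ARID3B (-0.38). Such differences were common among all probes, 24.9% being higher and 43.5% lower. With spike-in scaling IGF2BP2 stood at 0.0683 and -0.14 with no call, and ARID3B became a called gain of 0.725. Over all probes, 10664 were then called higher and 287 lower. The part of the difference in signal between the RIP groups in these values was not tested. Each group had 2 arrays, too few for a search for single arrays far from the rest.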

How the results depend on the processing

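The counts, the values of the listed genes' probes, and the changes of the genes named from the other lists were recomputed under 22 alternatives, or fewer where a setting drops a probe or gives no test. The gains of enrichment of CDC34, IGF2BP3, both NRAS probes and THBS1 A_24_P142118 were called in the same direction under each alternative run. With spike-in scaling, input rises were called for 24 probes (1415 otherwise). RIP changes were called higher for 10471 (4596) and lower for 642 (8176) probes, enrichment in miR-NC cells for 78 (6106) and 16484 (6916), in miR-634 cells for 934 (6011) and 14243 (7854), and the change of enrichment for 10664 (4189) and 287 (7315). Of the listed genes' probes, 0 (2) then rose in the input, 8 (5) rose and 0 (4) fell in the RIP, HMGA2 included, 0 (7) were above and 7 (0) below the input level in miR-NC cells, 4 (7) were above it in miR-634 cells, and 0 (3) lost enrichment.

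Spike-in scaling also turned directions. The RIP change became 0.72 (HMGA2 NM_003483), 0.0335 (HMGA2 NM_001300918), 0.16 (IGF2BP2 A_33_P3242973), 0.82 (ARID3B), 0.29 (E2F5), 0.35 (NR6A1), 0.0705 (COIL), 0.71 (CDKN1A) and 0.21 (KHSRP). The change of enrichment became 0.34 (HMGA2 NM_001300918), 0.0683 (IGF2BP2 A_23_P250156), 0.725 (ARID3B), 0.062 (NR6A1), 0.28 (COIL) and 0.15 (KHSRP). Enrichment in miR-NC cells became -1.82 (HMGA2 NM_001300918), -2.10 (IGF2BP2 A_33_P3242973), -2.26 (IGF2BP3), -0.006 (ARID3B), -0.13 and -0.94 (NRAS), -2.06 (THBS1 A_33_P3415820) and -1.32 (CDC34). In miR-634 cells it became -0.0359 (IGF2BP3), -0.37 and -0.68 (THBS1). This follows from the shift of all probes. The RIP change of HMGA2 NM_003483 was 0.0284 with the percentile over all probes and 0.0276 with the authors' processed values. Relative to the median of all probes it stood at 0.0901 in both, as otherwise, since these scalings shift whole arrays.

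The input change was called higher and lower for 68 and 212 probes with no filter, 613 and 885 with a filter on 1 group, 2433 and 2857 by the methods' t-test at its own threshold and 41 and 70 after Benjamini-Hochberg, and lower for 795 and 806 with the percentile over all probes and the authors' values (1652 otherwise). Of the listed genes' probes, 1 rose with quantile normalization, the percentile over all probes, the authors' values or the methods' t-test, 0 with no filter, with a filter on 1 group or after its adjustment, while the 5 that fell went to 1 with no filter and 0 after that adjustment. Leaving out 1 array gave 320 to 1592 rises, 551 to 1888 falls and 0 to 2 listed probes that rose, 5 to 6 that fell, and 5 to 7 listed probes above the input level in miR-NC cells. Without miR-NC input replicate 1 or 2, 320 and 412 probes rose and 551 and 595 fell, and without miR-634 input replicate 1 or 2, 360 and 327 rose and 662 and 596 fell. In such fits the lone array is assumed to vary like the other groups. With no filter, 31068 probes fell in the RIP, 32871 and 27584 were enriched in miR-NC and miR-634 cells and 25298 lost enrichment, of 58179 probes. With 1 probe per gene, out of fewer tests, 5098 fell in the RIP, 3676 and 3961 were enriched and 4730 lost enrichment. The adjusted t-test called 4704 falls in the RIP and 4331 losses of enrichment, and of the listed genes' probes 2 falls and 1 loss, as did the unadjusted t-test.

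With the replicate block, 1192 probes rose and 1406 fell in the input, and the listed probes that rose went from 2 to 1, as IGF2BP2 A_33_P3242973 passed the threshold no longer. No other call on the listed genes' probes changed. Deviations of same-numbered arrays correlated between -0.03 and 0.08 across pairs of groups, computed over probes, which are not independent replicates. The values between input and RIP of the same cells, 0.082 with miR-634 and 0.069 with miR-NC, were the highest. With 2 arrays per group these values cannot decide whether the numbers pair the arrays. Signal over background limits which probes could be used.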
